A study of Homo sapiens with 6 samples.

Results

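Eph receptors and their ligands, the ephrins, were followed in SW620, an established cell line from a human colorectal carcinoma, in which DKC1 had been stably knocked down. The members were chosen by gene symbol, as 6 receptors (EPHA1, EPHA2, EPHA4, EPHB2, EPHB3 and EPHB4) and 4 ligands (EFNA1, EFNA4, EFNB1 and EFNB2), and all 10 were found among the 19672 genes listed. DKC1 encodes dyskerin, an enzyme that makes pseudouridine in RNA and that also belongs to the telomerase complex. There were 3 groups with 2 libraries each, 6 in all: the DKC1 shRNA line C6, the DKC1 shRNA line C3, and cells with a scrambled shRNA, called scramble. Cells of every group carried a pLV lentiviral vector and were selected with puromycin, so no group was of untransduced cells. Which DKC1 shRNA C6 and C3 carry, and whether each line is a clone or a pool, is not stated in the labels. Of the C3 libraries, replicate 1 has a genotype tag that reads control, and it was placed in C3 by its title.

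Eph receptors are receptor tyrosine kinases that bind ephrins on neighbouring cells. Ephrin-A ligands are held in the membrane by a lipid anchor and ephrin-B ligands cross it, so that a contact can signal forward into the receptor's cell and in reverse into the ligand's cell. In the intestinal crypt, EPHB2 and EPHB3 are known targets of WNT signalling through TCF factors, and together with ephrin-B ligands they keep proliferating and differentiated cells in their places.

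Total counts were 26889511 and 28425155 in the C6 libraries, 31021000 and 28283524 in the C3 libraries, and 26392238 and 26077966 in the scramble libraries, so that a count of 3 was worth 0.0968 to 0.114 CPM, where CPM are counts brought to a common library size. Levels are given in these units, after scaling of the library sizes by TMM. DKC1 itself had 70.3 and 67.1 CPM in C6, 144 and 149 CPM in C3, and 320 and 315 CPM in scramble, which put C6 at 21.7% and C3 at 46.3% of the scramble mean. The summed level of 9 colorectal epithelial markers ran from 8958 to 9064 CPM in C6, from 6888 to 7085 CPM in C3 and from 8491 to 9136 CPM in scramble. Keratins outweighed the rest of this sum, with scramble means of 4590 CPM for KRT8, 2144 for KRT18 and 1150 for KRT19. Single markers moved further than the sum. CDH1 was at 81.1% of its scramble mean in C6 and 25.8% in C3. VIL1 was at 47.2% in C6 and 127% in C3, and KRT19 at 169% in C6 and 83.2% in C3. Of these markers, 3 were called higher and 3 lower in C6, against 1 higher and 6 lower in C3. The defining immune genes PTPRC and CD3E, the endothelial gene CDH5, the fibroblast genes COL3A1 and DCN and the neural gene RBFOX3 had a count of 0 in all 6 libraries. Of the 4 fibroblast markers 2 were tested, COL1A1 and LUM. The fibroblast list summed to 13.2 CPM in both C6 libraries, 25.0 to 30.0 CPM in C3 and 18.4 to 20.2 CPM in scramble. LUM, with means of 11.6 CPM in C6, 24.4 CPM in C3 and 16.2 CPM in scramble, made up most of it. By edgeR, LUM was called lower in C6 (adjusted p = 0.00373) and higher in C3 (0.00122). COL1A1 was called lower in C6 (0.0104) and was not called in C3 (0.98). The 3 endothelial markers summed to 5.25 to 5.73 CPM in C6, 3.24 to 3.36 CPM in C3 and 5.51 to 6.28 CPM in scramble, and, of these, VWF was called lower in C3 (adjusted p = 0.00664) and PECAM1 lower in C6 (adjusted p = 0.037). The immune list, through CD14, reached at most 0.223 CPM and the neural list, through SNAP25, at most 0.149 CPM in any library. These marker genes were named after their values were seen, and the part of the epithelial and other markers in the results was not tested.

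To show the DNA just upstream of the members that were called in both knockdown lines, the 250 bases before the RefSeq start of the gene are given for 4 of them: EPHA1, EPHB4 and EFNB1, which were lower in both, and EPHB3, which moved in opposite directions. The windows are chr7:143408857-143409106 (minus strand) for EPHA1, chr7:100827524-100827773 (minus strand) for EPHB4, chrX:68828771-68829020 (plus strand) for EFNB1 and chr3:184561535-184561784 (plus strand) for EPHB3, in GRCh38.p14, each read 5′ to 3′ along the gene. Capitals mark matches to the motifs searched on both strands. All matches in these 4 windows are to the GC box.
EPHA1: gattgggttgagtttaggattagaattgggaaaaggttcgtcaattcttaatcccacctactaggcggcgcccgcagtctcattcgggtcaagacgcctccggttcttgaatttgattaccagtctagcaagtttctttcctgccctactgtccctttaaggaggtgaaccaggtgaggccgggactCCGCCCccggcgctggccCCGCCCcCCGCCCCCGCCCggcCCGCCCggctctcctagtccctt
EPHB4: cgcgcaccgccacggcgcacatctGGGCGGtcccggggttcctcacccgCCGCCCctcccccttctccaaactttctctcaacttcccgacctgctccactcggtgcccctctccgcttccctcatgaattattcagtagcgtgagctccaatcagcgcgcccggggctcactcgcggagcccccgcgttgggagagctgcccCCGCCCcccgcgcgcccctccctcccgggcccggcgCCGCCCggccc
EFNB1: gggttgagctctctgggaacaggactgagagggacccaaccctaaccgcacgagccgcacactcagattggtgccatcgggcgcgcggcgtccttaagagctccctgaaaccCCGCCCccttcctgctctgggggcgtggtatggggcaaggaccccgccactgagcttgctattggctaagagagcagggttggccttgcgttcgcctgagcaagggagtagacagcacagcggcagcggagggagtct
EPHB3: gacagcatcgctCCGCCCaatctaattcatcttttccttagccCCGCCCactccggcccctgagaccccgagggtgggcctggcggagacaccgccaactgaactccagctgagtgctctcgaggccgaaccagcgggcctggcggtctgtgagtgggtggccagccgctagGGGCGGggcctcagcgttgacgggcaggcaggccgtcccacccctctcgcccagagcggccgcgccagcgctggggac

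The motifs searched were the GC box GGGCGG, the TCF/LEF core CTTTGA, the AP-1 site TGANTCA and the E-box CACGTG, and matches to different motifs were allowed to overlap. The 10 members have 12 such promoter windows, since EPHA4 and EPHB2 have a pair of starts each. The windows of EPHB2 begin at 22710588 and 22710589, so they are nearly the same sequence. The GC box was present in all 12, while 42.6% of 35114 RefSeq promoter windows of the same length held it. This motif is made of G and C alone, and the members' windows had a GC content of 43.2% to 84.8%. Windows of like GC content were not compared. EPHA1 has 5 matches, EPHB4 has 4, EPHB3 has 3 and EFNB1 has 1. The TCF/LEF core was found in 1 window, that of EPHA2, against 11.2% of all windows, and these letters are not in the window shown for EPHB3. Neither the AP-1 site (6.57% of all windows) nor the E-box (6.35%) was found in a member's window. A match here is a match of letters and not a measured binding site.

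To allow genes to be compared, levels were set as CPM per kilobase of transcript. The length was that of the longest GENCODE transcript linked to a RefSeq accession of the gene. On this scale the family was led by EPHA2, a receptor for ephrin-A1 that is abundant in many epithelial tumours. EPHA2 stood at 246 CPM per kilobase in C6, 186 in C3 and 190 in scramble. It made up 85.9% and 86.1% of the summed level of 14 Eph receptors in the C6 libraries, 84.3% and 83.9% in C3, and 86.8% and 86.1% in scramble. Among the ligands EFNB2, which encodes the transmembrane ephrin-B2, was highest, at 79.5 CPM per kilobase in C6, 55.9 in C3 and 62.7 in scramble. Its share of the summed level of 8 ephrins was 61.7% and 62.3% in C6, 61.1% and 60.6% in C3, and 56.2% and 56.5% in scramble. EFNB1, encoding ephrin-B1, came next among the ligands, at 25.4 CPM per kilobase in C6, 14.3 in C3 and 31.6 in scramble.

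The other members were lower. EPHB3, EFNA1, EPHB2 and EPHA4 lay between 4.71 and 11.2 CPM per kilobase in C6, between 3.23 and 9.31 in C3 and between 3.45 and 7.18 in scramble. EPHB4 was at 1.86 CPM per kilobase in C6, 2.01 in C3 and 2.90 in scramble. EFNA4 and EPHA1 were lowest, with EPHA1 at 0.0226 CPM per kilobase in C6, 0.0918 in C3 and 0.542 in scramble. In the order of levels, EPHB2 and EPHA4 overlapped between libraries in scramble and in C3, and EPHA4 overlapped with EPHB3 in C6. EPHA1 and EFNA4 overlapped in scramble. EFNA1 overlapped in C6 with EFNA2, a ligand outside the 10 members. The transcript that the cells use was not measured, so these values depend on the annotated length.

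**Figure D1:**
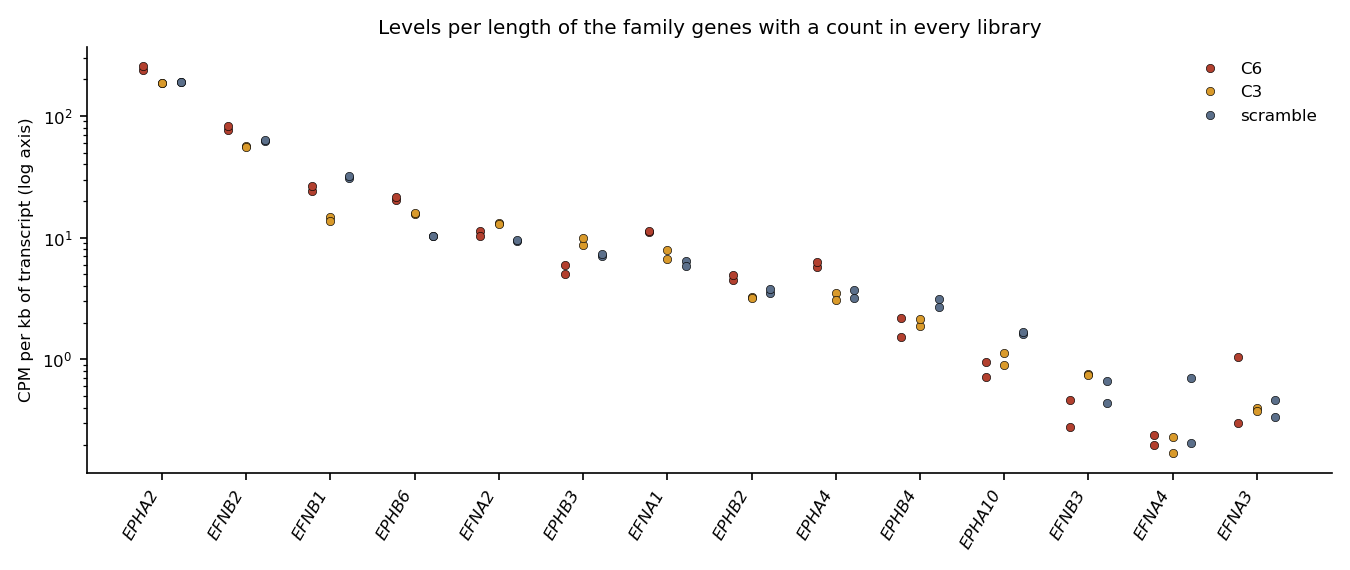
CPM per kilobase of the longest linked GENCODE transcript, on a log axis, in C6, C3 and scramble. Shown is each family gene with a count in every library (EPHA1 has none in 1 C6 library), and each point is a library. EPHA2 leads in every group, at 246 CPM per kilobase in C6, 186 in C3 and 190 in scramble, and EFNB2 is the highest ligand.

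Against scramble, the members of the family moved in both directions, and the 2 knockdown lines differed in most of them. In C6, EPHA2, EPHA4, EPHB2, EFNA1 and EFNB2 were called higher and EPHA1, EPHB3, EPHB4 and EFNB1 lower, at an adjusted p of 0.05 by edgeR's quasi-likelihood test over 13299 genes. In C3, EPHB3 was called higher and EPHA1, EPHB4 and EFNB1 lower. EPHA1, EPHB4 and EFNB1 were thus lower in both lines. EPHB3 was the 1 member called in opposite directions, and the other 5 tested members were called in C6 but not in C3. Calls were also more common in C6 over all tested genes, at 46.7% against 24.3% in C3.

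The test took 9 of the 10 members, since EFNA4 did not pass the filter on low counts. Called against scramble were 9 of the 9 in C6, where 46.7% of all tested genes were called (23.8% higher and 22.8% lower), and 4 of the 9 in C3, where 24.3% were (12.4% higher and 11.9% lower). Calls in both lines in the same direction covered 3 of the 9 members and 10% of all tested genes, and calls in opposite directions covered 1 member and 4.93% of all tested genes. The median log2 fold change of the 9 members was 0.34 in C6, against −0.01 for all tested genes, and −0.165 in C3, against 0.001. EPHA1 entered these counts and medians after passing the filter only through its scramble libraries, so its calls were built into its being tested. Without it, 8 of 8 members were called in C6, 3 of 8 in C3, and 2 of 8 in both lines in the same direction. The count in C3 was smaller whichever scramble or C3 library was left out, which leaves that group with 1 library. In bulk RNA such as this, fewer cells that express a gene and less of its RNA per cell cannot be told apart.

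**Figure D2:**
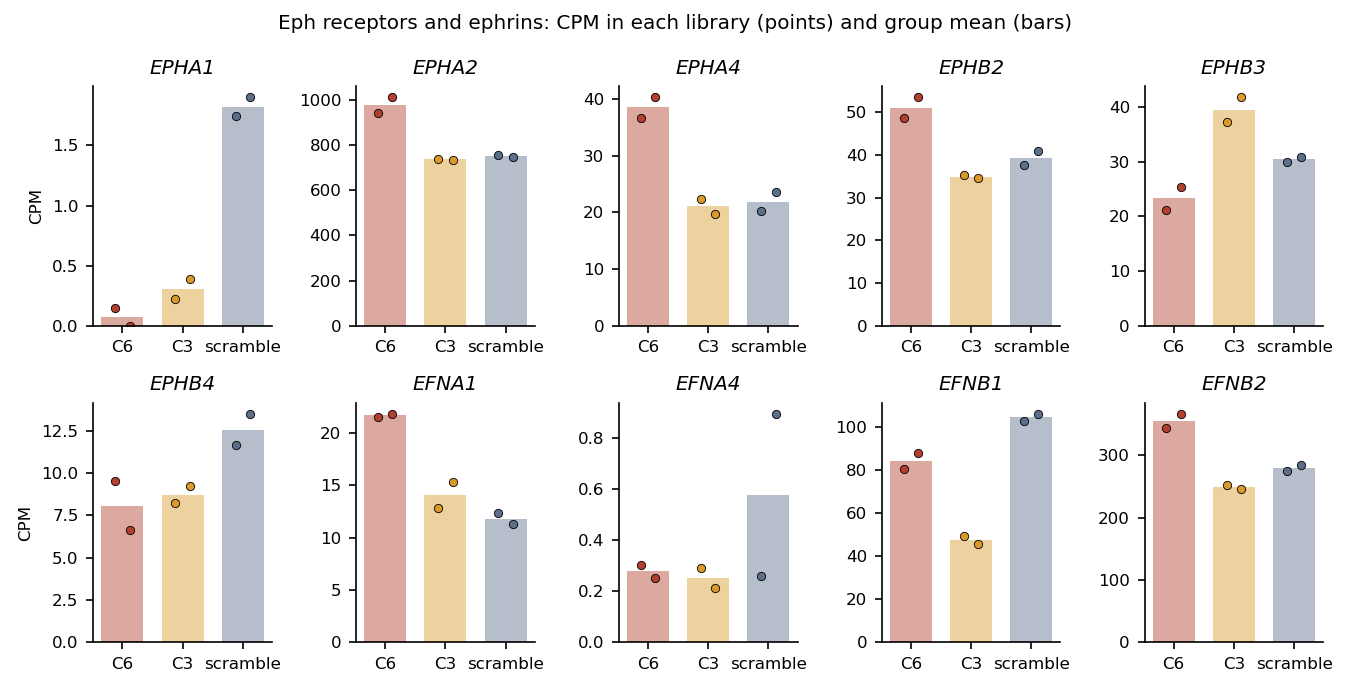
CPM of each member in the 2 libraries of C6, C3 and scramble, with 1 panel a member; points are libraries and bars group means. EPHA1, EPHB4 and EFNB1 lie below scramble in both knockdown lines, and EPHB3 lies below it in C6 and above it in C3.

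EPHA1 (7:143391129-143408856), a receptor that prefers ephrin-A ligands, showed the largest fall among the members. It had 4 and 0 counts in the C6 libraries, 7 and 11 counts in the C3 libraries, and 47 and 51 counts in the scramble libraries. Each knockdown library was below both scramble libraries. EPHA1 passed the filter only because of its level in scramble, so a difference was built into its being tested. The ratio of CPM between C6 and scramble was 0.0405 (95% interval 0.0108 to 0.107, from 4 against 98 counts), and that between C3 and scramble was 0.167 (0.0951 to 0.278, from 18 against 98 counts). These intervals cover counting error only. By edgeR, the log2 fold change was −4.54 in C6 (95% interval −6.20 to −2.87; adjusted p = 0.000228). In C3 it was −2.56 (−3.87 to −1.24; adjusted p = 0.00656). The C3 call was lost without scramble replicate 1 (adjusted p = 0.0656), without scramble replicate 2 (0.0836) or without C3 replicate 1 (0.0637). EPHA1 overlaps the antisense gene EPHA1-AS1, and no label states the strand setting of the counting.

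EPHA2 (1:16124337-16156069) was measured at 943 and 1011 CPM in C6, 739 and 736 CPM in C3, and 754 and 749 CPM in scramble. Only the C6 libraries stood above the scramble libraries. On the log2 scale the fold change was 0.38 ± 0.06 in C6 (SE; adjusted p = 7.39e-05), and it was −0.03 ± 0.06 in C3 (adjusted p = 0.783), with a 95% interval of −0.15 to 0.10. For the most abundant Eph receptor of these cells, the difference between C6 and C3 was 0.41 ± 0.06 (adjusted p = 3.19e-05).

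EPHA4 (2:221418027-221574202), a receptor that binds ligands of both ephrin classes, had 36.7 and 40.2 CPM in C6, 22.4 and 19.7 CPM in C3, and 20.2 and 23.6 CPM in scramble. The C3 and scramble libraries overlapped, and both C6 libraries lay above them. EPHA4's log2 fold change was 0.81 ± 0.10 in C6 (adjusted p = 1.46e-05) and −0.06 ± 0.11 in C3 (adjusted p = 0.764; 95% interval −0.28 to 0.17). Between C6 and C3 it was 0.87 ± 0.10 (adjusted p = 5.89e-06), the largest positive difference between the lines among the members.

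The B receptors EPHB2 and EPHB3, both known from the crypt, did not move alike. EPHB2 (1:22710838-22921500) had 48.5 and 53.4 CPM in C6, 35.2 and 34.6 CPM in C3, and 37.6 and 40.8 CPM in scramble. The C6 libraries were above and the C3 libraries below the scramble libraries. Its log2 fold change was 0.38 ± 0.08 in C6 (adjusted p = 0.00144) and −0.17 ± 0.08 in C3 (adjusted p = 0.161; 95% interval −0.34 to 0.01), and between the lines it was 0.55 ± 0.08 (adjusted p = 5.4e-05).

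EPHB3 (3:184561785-184582408) ran the other way. It had 21.2 and 25.5 CPM in C6, 37.2 and 41.7 CPM in C3, and 30.0 and 30.9 CPM in scramble. No groups overlapped, with C6 lowest and C3 highest. Against scramble, the log2 fold change was −0.38 ± 0.10 in C6 (adjusted p = 0.00675) and 0.37 ± 0.10 in C3 (adjusted p = 0.0118). The difference between C6 and C3 was −0.76 ± 0.10 (adjusted p = 1.77e-05), the only negative one called among the members. The C6 call was lost without scramble replicate 2 (adjusted p = 0.0537) or C6 replicate 1 (0.089), and when the median of the neighbouring genes was taken off (log2 fold change −0.05; adjusted p = 0.736). The C3 call was lost without scramble replicate 1 (0.0868), scramble replicate 2 (0.0641) or C3 replicate 2 (0.138).

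EPHB4 (7:100802565-100827523), the receptor of ephrin-B2 known from blood vessel formation, was lower in both lines. It had 9.49 and 6.65 CPM in C6, 8.20 and 9.21 CPM in C3, and 11.6 and 13.5 CPM in scramble. All 4 knockdown libraries were below the scramble libraries, and those of C6 and C3 overlapped. The log2 fold change was −0.64 ± 0.16 in C6 (adjusted p = 0.00512) and −0.53 ± 0.16 in C3 (adjusted p = 0.0266). The lines did not differ by the test (−0.11 ± 0.17; adjusted p = 0.617), within a 95% interval of −0.47 to 0.25. Neither call held in all alternatives. The call in C6 was lost without scramble replicate 2 or C6 replicate 2. That in C3 was lost with DESeq2 (adjusted p = 0.0651) and without any 1 of the scramble and C3 libraries. Leaving out such a library leaves its group with 1. Over all alternatives the log2 fold change stayed between −1.19 and −0.40 in C6 and between −0.63 and −0.42 in C3. SLC12A9, which overlaps EPHB4, was not called in either line.

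**Figure D3:**
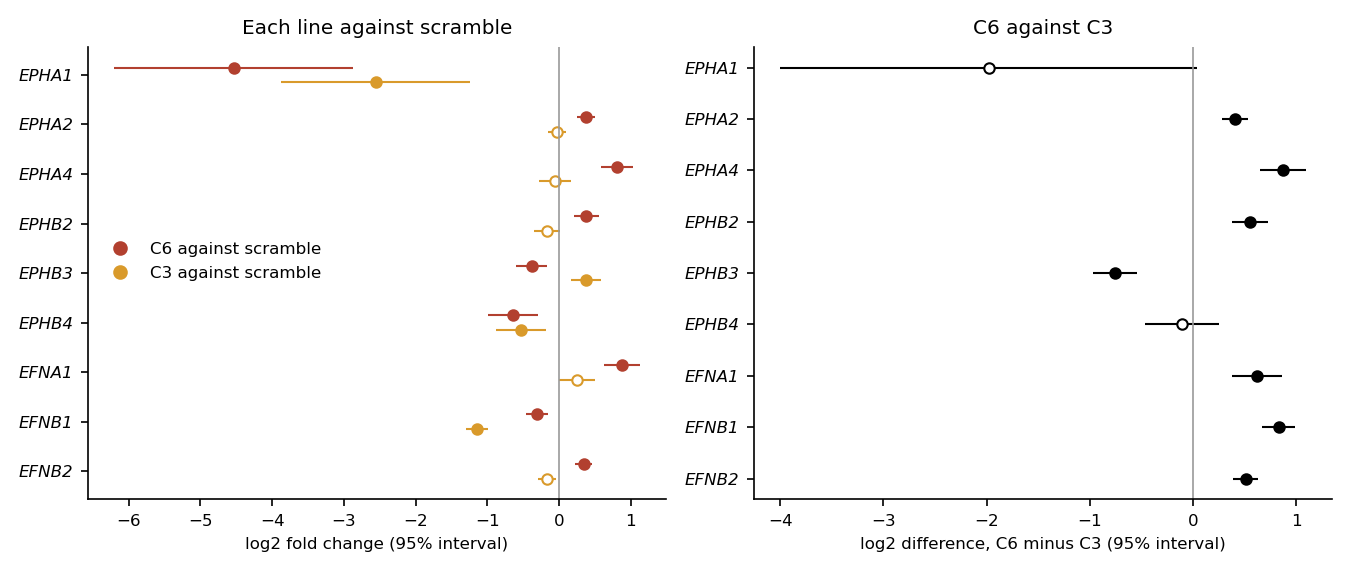
Log2 fold change with its 95% interval for the 9 tested members, in C6 against scramble, C3 against scramble and C6 against C3; filled points were called and open points were not. The intervals of EPHA2 lie above 0 in C6 and include 0 in C3, and EFNB1 falls by 1.14 in C3 and by 0.31 in C6.

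Of the ephrin-A ligands, EFNA1 (1:155127876-155134899), which encodes a ligand of EPHA2, was higher in C6. It had 21.5 and 21.8 CPM in C6, 12.8 and 15.3 CPM in C3, and 12.3 and 11.2 CPM in scramble. Both C6 libraries lay above all others, and both C3 libraries lay above the scramble libraries by a smaller margin. EFNA1 had a log2 fold change of 0.88 ± 0.12 in C6 (adjusted p = 2.04e-05) and 0.26 ± 0.12 in C3 (adjusted p = 0.136), and between the lines it was 0.62 ± 0.11 (adjusted p = 0.000335). EPHA2 and its ligand EFNA1 were thus both called higher in C6 and in C6 over C3.

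EFNA4 (1:155063740-155069553), another ephrin-A ligand, was close to the limit of detection. It had 8 and 7 counts in C6, 9 and 6 counts in C3, and 7 and 24 counts in scramble. All but 1 scramble library lay between 6 and 9 counts, so the groups overlapped. The ratio of CPM to scramble was 0.481 in C6 (95% interval 0.241 to 0.917) and 0.440 in C3 (0.221 to 0.841). These intervals cover counting error only and leave out the gap between the scramble libraries. With no filter on low counts, the adjusted p by edgeR was 0.464 in C6 and 0.489 in C3, so no difference was called. EFNA4 overlaps the readthrough genes ADAM15-EFNA4 and EFNA4-EFNA3, and no label states how their reads were assigned.

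The ephrin-B ligands moved in different ways. EFNB1 (X:68829021-68842160) had 80.6 and 88.1 CPM in C6, 49.3 and 45.7 CPM in C3, and 103 and 106 CPM in scramble. No groups overlapped, and C3 stood lowest, while DKC1 was lowest in C6. EFNB1 had a log2 fold change of −0.31 ± 0.07 in C6 (adjusted p = 0.00223) and −1.14 ± 0.07 in C3 (adjusted p = 3.21e-08), and the difference between C6 and C3 was 0.83 ± 0.07 (adjusted p = 2.55e-07). The C3 call held in all 14 alternatives run, while the C6 call ended when the median of the neighbouring genes was taken off (−0.15; adjusted p = 0.104).

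EFNB2 (13:106489745-106535662) had 343 and 366 CPM in C6, 253 and 246 CPM in C3, and 275 and 285 CPM in scramble. The C6 libraries were above and the C3 libraries below the scramble libraries. The log2 fold change was 0.34 ± 0.06 in C6 (adjusted p = 0.000202) and −0.165 ± 0.058 in C3 (adjusted p = 0.0525). The C3 value lay at the threshold, and 7 of 14 alternatives placed it below 0.05. The difference between the lines was 0.51 ± 0.06 (adjusted p = 3.9e-06).

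Set directly against C3, C6 had 6 members called higher and 1 lower of the 9, where 49.2% of all tested genes were called, 25.1% of them higher and 24.1% lower as shares of the genes tested. The higher ones were EPHA2, EPHA4, EPHB2, EFNA1, EFNB1 and EFNB2, with a log2 difference between 0.41 and 0.87, and the lower one was EPHB3. EPHA1 differed by −1.98 ± 0.95 (adjusted p = 0.096; 95% interval −4.00 to 0.04). The comparisons of C6 and of C3 with scramble share the scramble libraries, whereas this difference is taken between the C6 and C3 libraries. The filter, the scaling and the estimate of spread still came from all 3 groups. EPHA1 passed the filter only through its scramble libraries, here too.

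When both lines were averaged against scramble, EPHA2, EPHA4 and EFNA1 were called higher and EPHA1, EPHB4 and EFNB1 lower. This is 6 of 9 members, beside 32.9% of all tested genes (16.6% higher and 16.3% lower). EPHA1 is in this count after passing the filter only through its scramble libraries, so its call was built into its being tested. The averaged log2 fold change was 0.18 ± 0.05 for EPHA2 (adjusted p = 0.0143) and 0.38 ± 0.09 for EPHA4 (adjusted p = 0.0055), neither of which was called in C3. EPHA2's call was lost with upper-quartile scaling (0.0737), without scramble replicate 1 (0.0661) and without scramble replicate 2 (0.0918), EPHA4's without scramble replicate 1 (0.107), and EPHB4's without scramble replicate 2 (0.108). With the 4 knockdown libraries taken as 1 group, so that the difference between the lines counts as spread, 0 of 9 members were called by edgeR; the lowest adjusted p was 0.174, and EFNA1, EPHA1 and EPHB4 had an unadjusted p under 0.05. DKC1 was not called in that fit either (adjusted p = 0.124), and DESeq2 with the lines kept apart called 6 members in the mean.

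Genes around several members shifted with the lines, and those values are given beside the members. Neighbours here are the 25 tested genes on each side along the chromosome, 50 in all, and can lie megabases away. Those of EFNB2 reach from 95677139 to 113491563 on chromosome 13. The neighbours of EPHB3 had a median log2 fold change of −0.32 in C6, where 6 were called higher and 26 lower, and −0.025 in C3. Those of EFNB2 had −0.52 in C6, where 2 were called higher and 34 lower, and −0.04 in C3. Those of EPHA4 had −0.33 in C6 and −0.14 in C3. EPHA1 and EPHB4, on chromosome 7, had neighbours that were higher in C6, with medians of 0.54 and 0.55, although both members were lower. In C3 the median was 0.325 for the neighbours of EPHA1, where 27 were called higher and 3 lower, and 0.05 for those of EPHB4. EFNB1's neighbours had a median of −0.16 in C6 and −0.03 in C3.

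For the step that took the neighbours' median off each knockdown line, the median ran over 51 genes, with the gene itself included. It ended the calls of EPHB3 and EFNB1 in C6, as given above. EFNB2 in C6 moved to 0.86 and EPHB4 in C6 to −1.19, and both stayed called. With this step EPHB4 also differed between C6 and C3 (−0.61; adjusted p = 0.00805), EFNB2 was called higher in the mean of the lines (0.37; adjusted p = 7.46e-05), and EPHB3 still differed between C6 and C3 (−0.45; adjusted p = 0.00197).

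**Figure D4:**
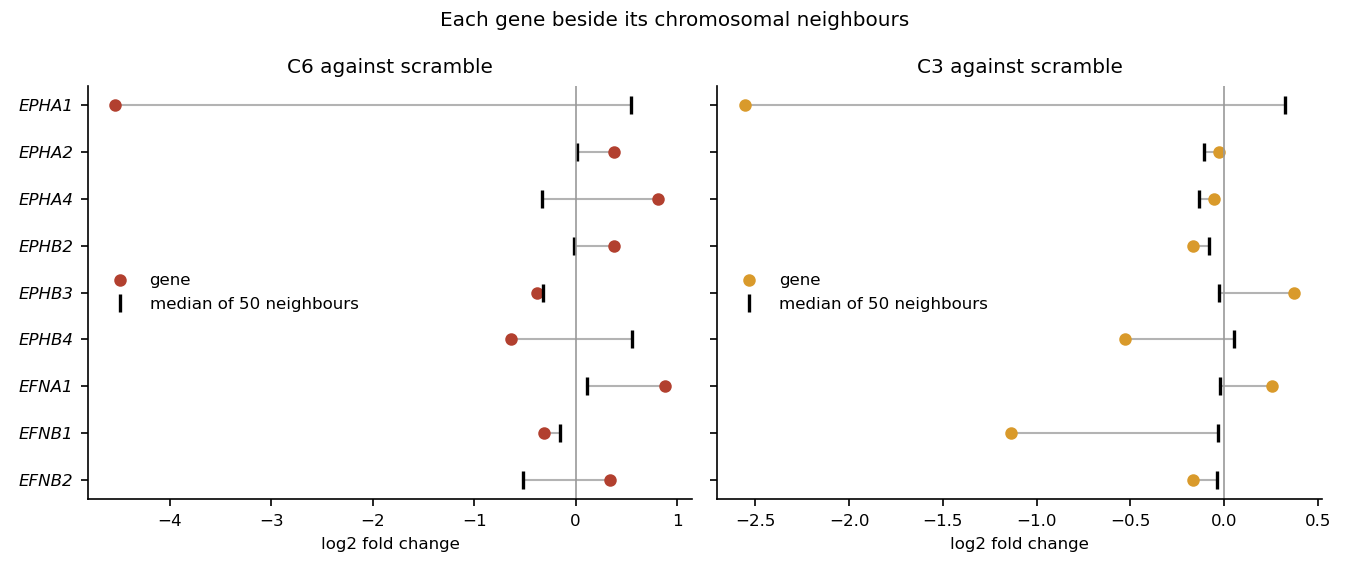
Log2 fold change of each tested member beside the median of its 50 neighbouring tested genes, 25 on each side, in C6 and in C3 against scramble. In C6 the neighbours of EPHB3 lie at −0.32, close to EPHB3 itself at −0.38, whereas those of EPHA1 and EPHB4 lie above 0.

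Of the other 12 genes of the family, 8 were tested, and 1 was called higher and 1 lower in C6, against 3 higher and 1 lower in C3, beside 46.7% of all tested genes called in C6 and 24.3% in C3. One of the higher calls in C3 is EPHA3, described below, which passed the filter only through C3; without it 2 of 7 were higher and 1 lower there. With EPHA3 included, the C3 calls fell to 2 higher and 0 lower without scramble replicate 1, scramble replicate 2 or C3 replicate 2. EPHB6, whose kinase domain is inactive, was higher in both lines, at 72.0 ± 2.17 CPM in C6, 53.8 ± 0.750 CPM in C3 and 35.4 ± 0.374 CPM in scramble (SD, n = 2 each). Its log2 fold change was 1.02 ± 0.07 in C6 (adjusted p = 3.65e-08) and 0.60 ± 0.07 in C3 (adjusted p = 2.46e-05). EPHB6 lies 520 kilobases from EPHA1, which fell in both lines. The 50 neighbouring tested genes of EPHB6 had a median log2 fold change of 0.54 in C6 and 0.33 in C3. Over the 14 alternatives EPHB6 went as low as 0.48 in C6 and 0.27 in C3, and it stayed called. EPHA10, also a receptor without kinase activity, was lower, at 4.50 ± 0.880 CPM in C6, 5.49 ± 0.916 CPM in C3 and 8.91 ± 0.199 CPM in scramble, with a log2 fold change of −0.99 ± 0.19 in C6 (adjusted p = 0.000462) and −0.70 ± 0.18 in C3 (adjusted p = 0.01). Its C3 call was lost without scramble replicate 1, scramble replicate 2 or C3 replicate 2.

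EPHA3, an ephrin-A receptor, was found almost only in C3. It had 0 and 2 counts in C6, 77 and 59 counts in C3, and 0 counts in both scramble libraries. Its mean of 2.29 CPM in C3 was at least 20.5-fold higher than the floor of 3 counts per library in scramble, and EPHA3 passed the filter on low counts only through C3. EFNA2, an ephrin-A ligand, had 10.2 ± 0.682 CPM in C6, 12.3 ± 0.137 CPM in C3 and 8.98 ± 0.146 CPM in scramble, and it was called in C3 (log2 fold change 0.45; adjusted p = 0.0148) and not in C6 (0.18; adjusted p = 0.263). EFNA2's call in C3 was lost with DESeq2 and without any 1 of the C3 and scramble libraries. EPHA5 and EPHA7 had a count of 0 in all 6 libraries, EPHA6 had 3 counts and EPHB1 had 6 counts over all of them.

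Lists of genes around the receptors were counted next. Of 25 tested genes of signalling close to the receptor, 9 were called higher and 4 lower in C6, and 7 higher and 3 lower in C3, with a median log2 fold change of 0.12 in C6 and 0.06 in C3. The share of all tested genes called was 46.7% in C6 and 24.3% in C3, and the count in C6 is near it. Calls in C3 came to 6 without scramble replicate 1 or C3 replicate 1, and to 3 without scramble replicate 2 or C3 replicate 2. CHN1, a RAC-directed GTPase-activating protein that acts downstream of EPHA4 in the nervous system of mice, was at 91.6 CPM in C6, 106 CPM in C3 and 73.4 CPM in scramble, with a log2 fold change of 0.42 in the mean of both lines (adjusted p = 5.42e-05). KALRN, a guanine nucleotide exchange factor, was at 14.5 CPM in C6, 6.35 CPM in C3 and 5.15 CPM in scramble, and it was called in C6 (1.49; adjusted p = 2.36e-06) and not in C3 (0.30; adjusted p = 0.221). The adaptor GRB2 and the phosphatase ACP1 were called higher in the mean, by 0.20 (adjusted p = 0.00631) and 0.31 (adjusted p = 0.000756) on the log2 scale, and GRB2's call was lost without scramble replicate 2.

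Of 8 tested genes linked to reverse signalling by ephrin-B, 5 were called higher and 2 lower in C6, and 2 higher and 2 lower in C3, with a median log2 fold change of 0.33 in C6 and −0.06 in C3, beside the same 46.7% and 24.3% of all tested genes. The 2 lower calls in C3 were lost without scramble replicate 2 or C3 replicate 2. PTPN13, a phosphatase that binds the tail of ephrin-B ligands, was at 3.57 CPM in C6, 48.0 CPM in C3 and 27.3 CPM in scramble. It was lower in C6 (log2 fold change −2.93; adjusted p = 3e-10) and higher in C3 (0.81; adjusted p = 2.66e-05), a difference between C6 and C3 of −3.74. The adaptor NCK2 had 32.5 CPM in C6, 33.5 CPM in C3 and 25.2 CPM in scramble, and the G-protein regulator RGS3 had 57.9 CPM in C6, 41.6 CPM in C3 and 39.5 CPM in scramble.

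Ephrins and Eph receptors are cut from the membrane by proteases. Of 8 tested genes of this kind, 4 were called higher and 1 lower in C6, and 1 higher and 2 lower in C3, with a median log2 fold change of 0.18 in C6 and −0.13 in C3, where 46.7% of all tested genes were called in C6 and 24.3% in C3. Calls came to 3 in C6 without C6 replicate 2 and to 1 in C3 without C3 replicate 2. ADAM10, the metalloprotease known to shed ephrins at cell contacts, was lower in both lines, at 80.7 CPM in C6, 80.1 CPM in C3 and 111 CPM in scramble. Its log2 fold change was −0.46 in C6 (adjusted p = 3.25e-05) and −0.48 in C3 (adjusted p = 6.76e-05), and both calls held in all 14 alternatives run. PSENEN, a subunit of gamma-secretase, was higher, at 19.6 CPM in C6, 16.0 CPM in C3 and 12.3 CPM in scramble; its C3 call was lost with DESeq2 and without scramble replicate 2 or either C3 library.

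Because EPHB2 and EPHB3 are known WNT targets, 14 WNT target genes of the crypt were set beside them. Of these, 4 were called higher and 5 lower in C6, and 8 higher and 1 lower in C3, with a median log2 fold change of −0.08 in C6 and 0.37 in C3. Over all tested genes, 23.8% were called higher and 22.8% lower in C6, and 12.4% higher and 11.9% lower in C3. AXIN2, a feedback inhibitor of WNT signalling, was at 159 CPM in C6, 160 CPM in C3 and 106 CPM in scramble, and TCF7 and ZNRF3 were likewise called higher in both lines. In C6, TCF7's call was lost without scramble replicate 2 or C6 replicate 2, and ZNRF3's with upper-quartile scaling, with the neighbours' median taken off, and without scramble replicate 1 or C6 replicate 2. NOTUM, a secreted WNT inhibitor, was at 162 CPM in C6, 314 CPM in C3 and 282 CPM in scramble.

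Called higher in C3 and lower in C6, as EPHB3 was, were 4 of the 14: ASCL2, MYC, NKD1 and SP5, which were named after their values were seen. The reverse, lower in C3 and higher in C6, was called for 1 of the 14, CD44. Over all tested genes, 4.93% were called in opposite directions in the lines, whichever way round. ASCL2, a transcription factor of crypt stem cells, was at 12.1 CPM in C6, 23.9 CPM in C3 and 18.8 CPM in scramble, and NKD1, a WNT feedback inhibitor, was at 1760 CPM in C6, 3924 CPM in C3 and 2832 CPM in scramble. ASCL2's call in C3 was lost with DESeq2 and without scramble replicate 2 or either C3 library. With the neighbours' median taken off, SP5 in C6 turned to 0.22 on the log2 scale, against −0.30 without that step. EPHB3 in C6 went to −0.05 with the same step, against −0.38. The C3 call of EPHB3 was lost without some single libraries, as given above. The surface glycoprotein CD44, also named after its values were seen, ran the other way, at 30.8 CPM in C6, 5.16 CPM in C3 and 9.58 CPM in scramble, and EPHB2 was higher in C6 as well.

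**Figure D5:**
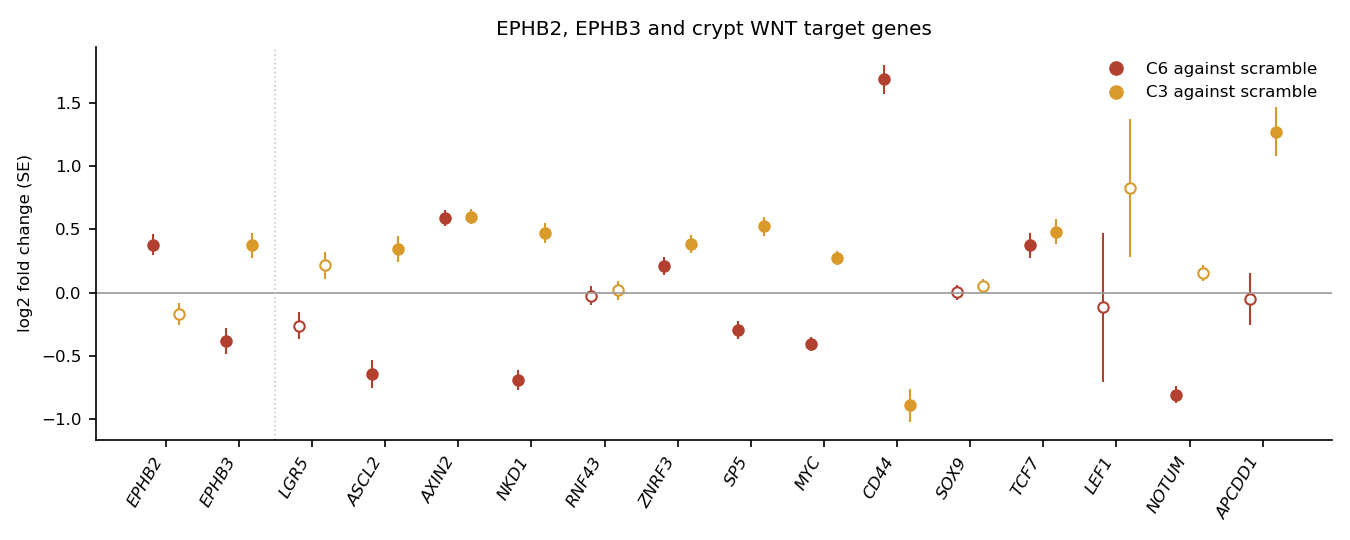
Log2 fold change of EPHB2, EPHB3 and 14 crypt WNT target genes in C6 and in C3 against scramble; bars are SEs, filled points were called and open points were not. The 14 genes have a median of −0.08 in C6 and 0.37 in C3.

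The members with the widest spread over the 6 libraries were EPHA1 and EFNB1, with an SD of log2 CPM of 1.84 and 0.53. The genes whose centred log2 CPM lay closest to theirs were looked for among 10408 genes. For EPHA1 the nearest were SCN9A, a sodium channel, RAMP1, an accessory protein of the calcitonin receptor-like receptor, and SBSPON, at root mean square distances of 0.497, 0.503 and 0.547. For EFNB1 they were DENND2D, ADRA1B, an adrenergic receptor, and FIBCD1, at 0.071, 0.082 and 0.088. FIBCD1 was at 75.9 CPM in C6, 40.0 CPM in C3 and 82.2 CPM in scramble, beside means of 84.3 CPM in C6, 47.5 CPM in C3 and 105 CPM in scramble for EFNB1. With 3 groups of 2 libraries, many genes can share such an order.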

How the data were processed

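The authors deposited unscaled read counts, whole numbers, of 19672 genes in 6 stranded poly(A) libraries, per the file headers. Per the submitters' processing notes, Trimmomatic 0.38, HISAT2 2.1.0, StringTie 2.1.3b and DESeq2 were used with build hg38; neither the labels nor the file headers state the counting step or its strand setting. Genes were matched to RefSeq (GRCh38.p14), 19506 of them, for positions and promoters. Groups were compared by quasi-likelihood tests in edgeR 4.0.16 under R 4.3.3 (robust, TMM, filterByExpr, all 3 groups in 1 fit, 3 residual degrees of freedom), adjusted by Benjamini-Hochberg over 13299 genes at 0.05. SEs are the log2 fold change over the root of F. Alternatives were RLE and upper-quartile scaling, no filter, a 1 CPM filter, DESeq2 1.42.0, the compared groups alone, pooled knockdown lines and a replicate block. Others were an offset of the running median of 51 genes, the gene itself included, and each library left out. All members and DKC1 were named, with at most 4 called genes of each list, chosen by the smallest p for both lines averaged; other family genes could be named too, and genes named outside this rule are said to be so where they appear. One further gene list is not reported here. The nearest 3 genes by log2 CPM were named among genes with a mean of at least 5 CPM. The members and lists were chosen with earlier results of these data known. Replicates are biological ones per the titles, which do not mention separate cultures, so p-values measure the spread between libraries, which may be technical; chi-square per degree of freedom between replicates was 8.07 in C6, 5.97 in C3 and 7.39 in scramble. The main edgeR fit was also run on simulated data, and the alternatives were not. Both knockdown lines were given the same changes there, so C6 against C3 had no difference to recover.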

Additional observations from a re-analysis of the deposited data

Results flagged for a closer look

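For 7 members, the effects of the 2 knockdown lines against scramble differed by the direct comparison of C6 with C3 (edgeR, adjusted over all tested genes). The log2 difference was 0.406 for EPHA2, 0.869 for EPHA4, 0.547 for EPHB2, 0.623 for EFNA1, 0.828 for EFNB1 and 0.508 for EFNB2, each higher in C6, and −0.755 for EPHB3, lower in C6. In none of these genes did the C6 and C3 libraries overlap. Of all tested genes, 49.2% differed between the lines.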

How the results depend on the processing

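No member's fold change turned its direction after being called, and most values stayed on the same side of the threshold. With DKC1 included, this held for 134 of 140 values in C6 against scramble, 122 of 140 in C3 against scramble, 127 of 140 in the mean of both lines and 137 of 139 in C6 against C3. With 1 library left out at a time, where the lone library of a group is assumed to vary like the others, the number of members called ran from 7 to 9 in C6, 1 to 5 in C3, 4 to 6 in the mean and 7 to 8 in C6 against C3. The lowest counts in C3 came from leaving out a library of C3 or scramble. Taking the knockdown lines as 1 group left 0 members called in the mean, and 80 of all tested genes against 4382. Without scramble replicate 2 the mean called 2444 genes, and C3 called 1946 against 3230, close to the 1947 without C3 replicate 2. Upper-quartile scaling lowered the share of higher calls among all genes to 37.2% in the mean, against 50.5% with TMM. The replicate numbers did not pair the libraries (correlations of deviations were 0.064 for C6 with scramble, −0.047 for C3 with scramble and 0.025 for C6 with C3), and a replicate block left the counts of members called at 9 in C6, 4 in C3, 6 in the mean and 7 in C6 against C3. Depth limits EPHA1 in the knockdown lines and EFNA4 in all groups. EPHA1 is in the counts of members above, although it passed the filter only through its scramble libraries.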
